A study of Arabidopsis thaliana with 12 samples.

Results

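The genes described here are the XTH family of Arabidopsis thaliana, which encodes xyloglucan endotransglucosylase/hydrolases. The 31 members are XTH1 to XTH33 without XTH14 and XTH22, taken by locus name, out of 25665 loci represented on the array. Each member had 1 probe, and all 31 loci were found in a RefSeq gene table, where XTH23 is listed as XTR6 and XTH27 as EXGT-A3. Whole seedlings of Columbia-0 were sampled at 3 weeks of age in 3 groups of 4 samples. The first carried 35S:MYB106SRDX, the second carried 35S:WIN1SRDX, and the third was wild type. MYB106 belongs to the MYB factors and is known for its role in trichomes and the epidermis, and WIN1, also named SHN1, is an ERF-type factor that acts on the cuticle. In both transgenes the factor is fused to SRDX, a short plant repression domain that turns an activator into a dominant repressor, and the fusion is expressed from the cauliflower mosaic virus 35S promoter, which is active in most cell types. All plants were raised on MS agar with 1% sucrose at 23 °C, under 16 h of light and 8 h of dark. Several seedlings taken from a plate made up each RNA sample, and nothing in the labels tells separate cultures or independent transgenic lines apart, so each p-value below reflects only how these samples scattered, which could be technical scatter. The comparisons ask which XTH transcripts differed from wild type when either repressor was produced, and where the lines differed from each other.

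Xyloglucan is the main hemicellulose that coats and tethers cellulose in the primary walls of dicot plants. XTH enzymes are secreted into the wall, cut a xyloglucan chain and rejoin its end to another xyloglucan chain, and some members cut it without rejoining. They act where walls are laid down or loosened, in growing shoots, in elongating roots and root hairs, and in vascular tissue. The family is commonly divided by sequence into group I, group II and group III, and members of group III include the predicted hydrolases XTH31 and XTH32.

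Levels are given as log2 signal over the 75th percentile of the same array, and a difference between groups is on the same log2 scale. On each array 59.3% to 64.2% of spots were well above background, and none was saturated. The MYB106 probe averaged 4.17 ± 0.94 in MYB106SRDX (SD, n = 4), against -3.89 ± 0.89 in WIN1SRDX (SD, n = 4) and -2.29 ± 0.65 in wild-type plants (SD, n = 4). The WIN1 probe averaged 5.60 ± 0.20 in WIN1SRDX (SD, n = 4) and was above background on only 1 of 4 MYB106SRDX arrays and 2 of 4 wild-type arrays. Each line was thus high in the probe of its own factor on all 4 arrays. Replicate 2 of MYB106SRDX stood apart from the other 3, with the lowest MYB106 signal of that line, 2.77, so results that rest on it are given below with and without it. In WIN1SRDX, replicates 2 and 3 stood apart from replicates 1 and 4 in flower markers, whose median difference from the wild-type mean was 4.13 and 3.75 on replicates 2 and 3, against 0.39 and 0.01 on replicates 1 and 4. Replicates 2 and 3 were on different slides. Leaving out both was added as an alternative after the data were seen, and the 2 remaining arrays are then taken to vary like the other groups.

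Of the 31 members, 27 were tested because every array of some group showed them well above background. In MYB106SRDX 15 of the 27 fell and 4 rose against wild type (limma, adjusted p under 0.05 over all 20267 genes tested). Of all genes tested in that comparison 52.2% passed, with 28.6% lower and 23.6% higher. The share of XTH members that passed was 70.4%, and their median difference was -1.25, against -0.05 over all genes. Without replicate 2 of MYB106SRDX, 17 members were lower and 3 higher, beside 52.5% of all genes in either direction. In 13 lower and 3 higher members the MYB106SRDX arrays did not overlap the wild-type arrays, beside 52.7% of all genes in either direction, 28.3% lower and 24.3% higher.

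In WIN1SRDX fewer members passed against wild type, with 7 lower and 4 higher. This is 40.7% of the 27, beside 32.6% of all genes in that comparison, of which 15.2% were lower and 17.4% higher. The median XTH difference was -0.05 in WIN1SRDX, against 0.00 over all genes. In 8 lower and 6 higher members the WIN1SRDX arrays did not overlap the wild-type arrays, beside 43% of all genes in either direction, 21% lower and 22% higher. Both comparisons use the same 4 wild-type arrays, so their values are set side by side and no overlap between them is tested. The lines were compared directly as well. MYB106SRDX was lower than WIN1SRDX for 13 members and higher for 6, which is again 70.4% of the 27, beside 42.6% of all genes, 24.2% lower and 18.3% higher. Arrays of the lines did not overlap for 10 lower and 5 higher members, beside 34.7% of all genes, 19.7% lower and 15% higher. The median member differed by -0.46 between the lines, against -0.03 over all genes. Without replicates 2 and 3 of WIN1SRDX, 5 members were lower and 4 higher in WIN1SRDX than in wild type, beside 22.2% of all genes in either direction. MYB106SRDX was then lower than WIN1SRDX for 7 members and higher for 6, beside 33.1% of all genes.

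**Figure D1:**
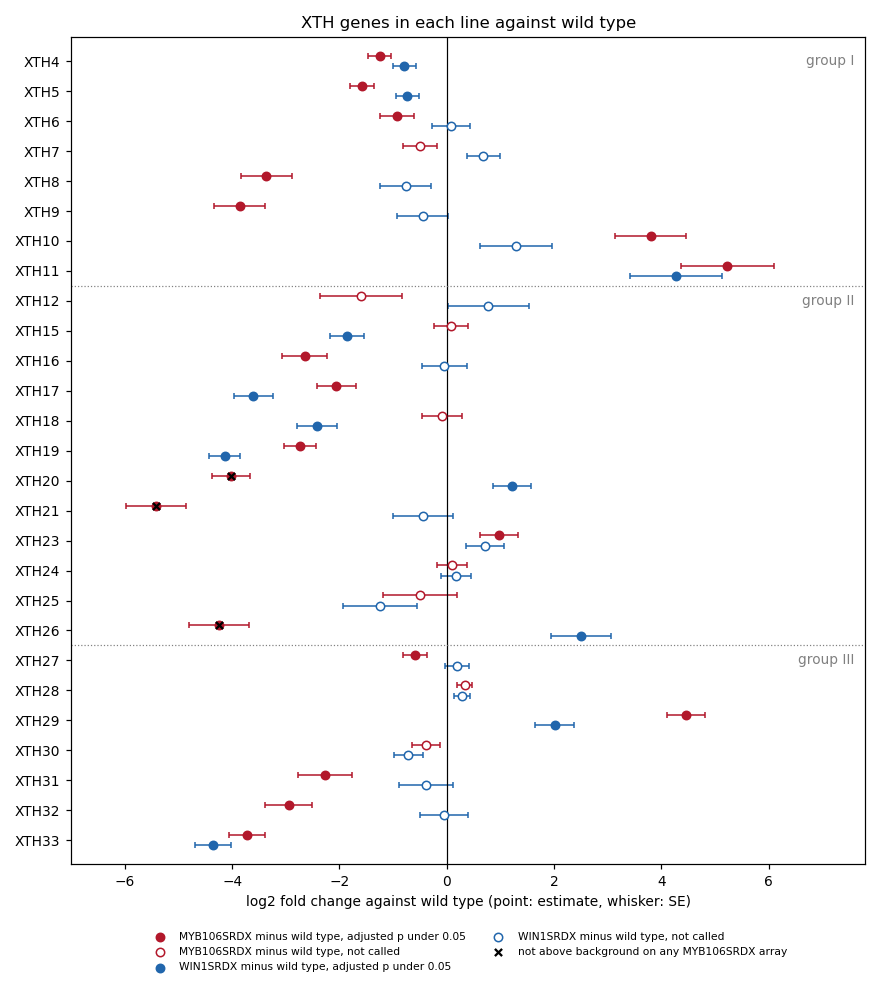
Log2 fold change of each of the 27 tested XTH genes in MYB106SRDX (red, upper point of each pair) and WIN1SRDX (blue, lower point) against wild type, with the SE of the fit as whiskers. Filled points passed at adjusted p under 0.05, and black crosses mark XTH20, XTH21 and XTH26, which were not above background on any MYB106SRDX array and whose folds are bounds in the text. XTH20 and XTH26 lay on opposite sides of 0 in the lines, whereas XTH29 and XTH11 lay to the right and XTH33 to the left in both.

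The first set of genes are 8 members of group II known mainly from roots: XTH12, XTH13, XTH17, XTH18, XTH19, XTH20, XTH21 and XTH26. Of these, 7 were tested. In MYB106SRDX 5 of the 7 fell, none rose, and the median difference was -2.73, or -2.44 with the genes below background taken at their bound. In WIN1SRDX 2 rose and 3 fell, with a median of -0.44. Those that passed were 71.4% of the 7 in each line, beside 52.2% of all genes in MYB106SRDX and 32.6% in WIN1SRDX. All 7 differed between the lines, beside 42.6% of all genes. Of the 7, 4 were lower in MYB106SRDX and 3 higher, so this set did not move as a block. Its median difference from the wild-type mean was -1.39 and -1.43 on WIN1SRDX replicates 2 and 3. On replicates 1 and 4 it was 0.22 and 0.82. On every WIN1SRDX array that median is the value of XTH21, so this split is that of XTH21. Flower markers stood apart on replicates 2 and 3. Root markers were lower there too, with medians of 0.61 and 0.76 against 1.08 and 1.09 on replicates 1 and 4.

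XTH20 (AT5G48070), a close relative of XTH17 that has been linked to cell proliferation in wounded stems, was opposite in the lines. It read -7.71, -7.13, -8.65 and -7.24 on the MYB106SRDX arrays, -2.29, -3.11, -2.68 and -1.72 on the WIN1SRDX arrays, and -3.62, -3.87, -3.68 and -3.48 on the wild-type arrays. None of the MYB106SRDX values was well above background, every WIN1SRDX value lay above every wild-type value, and the 3 groups did not overlap. XTH20 was at least 10.2-fold lower in MYB106SRDX than in wild type (adjusted p = 9.34e-06) and at least 23.5-fold lower than in WIN1SRDX (adjusted p = 2.66e-06). The adjusted p beside a bound, here and below, is that of the fit to the measured values, not of the bound itself. XTH20 rose by 1.21 ± 0.35 (SE) in WIN1SRDX (adjusted p = 0.0228). That rise missed the threshold when replicate 1 or 4 of WIN1SRDX, or replicate 1, 2 or 3 of wild type, was left out (adjusted p = 0.0509 to 0.0588).

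XTH26 (AT4G28850), an enzyme of root hairs, showed the same order. It read -7.51, -9.34, -9.14 and -9.30 in MYB106SRDX, -1.22, -1.56, -3.52 and -1.97 in WIN1SRDX, and -5.29, -4.73, -3.76 and -4.49 in wild type. Again no MYB106SRDX value was well above background, the WIN1SRDX arrays were all the brightest, and no groups overlapped. XTH26 was at least 5.42-fold lower in MYB106SRDX than in wild type (adjusted p = 0.000129) and at least 30.7-fold lower than in WIN1SRDX (adjusted p = 1.03e-05). In WIN1SRDX it rose by 2.50 ± 0.56 (SE, adjusted p = 0.00657).

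XTH21 (AT2G18800), which is needed for normal primary root growth, was low in MYB106SRDX. Its levels were -9.17, -9.32, -9.10 and -7.66 in MYB106SRDX, -3.18, -4.78, -4.82 and -2.58 in WIN1SRDX, and -4.24, -3.26, -2.99 and -3.10 in wild type. The MYB106SRDX arrays were all below background and below every other array, while the WIN1SRDX and wild-type arrays overlapped. Within WIN1SRDX the low values were those of replicates 2 and 3, whose flower markers were higher and root markers lower than on replicates 1 and 4. XTH21 was at least 12.2-fold lower in MYB106SRDX than in wild type (adjusted p = 2.63e-05) and at least 8.98-fold lower than in WIN1SRDX (adjusted p = 8.02e-05). In WIN1SRDX it differed from wild type by -0.44, with a 95% interval of -1.68 to 0.79, and did not pass (adjusted p = 0.569), and without replicates 2 and 3 by 0.52 (adjusted p = 0.502).

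XTH17, XTH18 and XTH19, 3 closely related root enzymes, followed another order, with WIN1SRDX lowest. XTH19 (AT4G30290) read -4.01, -4.60, -5.09 and -4.03 in MYB106SRDX, -5.44, -6.38, -5.53 and -6.01 in WIN1SRDX, and -1.82, -1.57, -1.28 and -2.13 in wild type. The 3 groups did not overlap. XTH19 fell by 2.73 ± 0.29 in MYB106SRDX (SE, adjusted p = 3.4e-05) and by 4.14 ± 0.29 in WIN1SRDX (SE, adjusted p = 1.57e-05), and it was higher in MYB106SRDX than in WIN1SRDX by 1.41 (adjusted p = 0.00324).

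XTH17 (AT1G65310) read -4.86, -4.17, -5.39 and -4.74 in MYB106SRDX, -6.38, -7.13, -6.03 and -5.81 in WIN1SRDX, and -2.64, -3.35, -1.96 and -2.99 in wild type. Its groups did not overlap either, and 1 of the 4 WIN1SRDX values was not well above background. XTH17 fell by 2.06 ± 0.37 in MYB106SRDX (SE, adjusted p = 0.000929) and by 3.60 ± 0.37 in WIN1SRDX (SE, adjusted p = 0.000107), and MYB106SRDX exceeded WIN1SRDX by 1.55 (adjusted p = 0.0064).

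XTH18 (AT4G30280) read 3.28, 3.81, 2.72 and 4.01 in MYB106SRDX, 1.60, 0.75, 1.70 and 0.47 in WIN1SRDX, and 3.56, 3.14, 4.26 and 3.21 in wild type. MYB106SRDX overlapped wild type, and WIN1SRDX lay below both. XTH18 fell by 2.41 ± 0.37 in WIN1SRDX (SE, adjusted p = 0.000997) and was higher in MYB106SRDX than in WIN1SRDX by 2.32 (adjusted p = 0.000708). In MYB106SRDX it differed from wild type by -0.09, with a 95% interval of -0.91 to 0.73. The probes' positions on the transcripts were not used here, so signal shared between these related genes was not separated.

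The lowest signals depend on how background is subtracted. With normexp background correction, XTH20 differed from wild type by -1.10 and XTH21 by -1.58 in MYB106SRDX (adjusted p = 0.00445 and 0.00405). XTH26 no longer passed there (-0.83, adjusted p = 0.119), while it remained lower in MYB106SRDX than in WIN1SRDX by that correction (-2.76, adjusted p = 0.000441). The same correction gave XTH17 a difference of -1.21 in MYB106SRDX and -1.95 in WIN1SRDX, and XTH19 -2.69 in WIN1SRDX, all with adjusted p under 0.05. Between the lines it gave XTH17 a difference of 0.74, XTH19 0.80, XTH20 -2.07 and XTH21 -1.37, all of which passed.

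XTH12 and XTH13 complete the root-expressed set. XTH12 (AT5G57530) ranged from -7.97 to -3.90 in MYB106SRDX, where 2 of 4 values were above background, from -5.13 to -3.15 in WIN1SRDX and from -4.92 to -4.38 in wild type. It was lower in MYB106SRDX than in WIN1SRDX (-2.37 ± 0.76, SE, adjusted p = 0.0269), a call that was lost without replicate 3 or 4 of MYB106SRDX or without replicate 1, 2 or 4 of WIN1SRDX (adjusted p = 0.0556 to 0.0712) and with normexp correction (-0.84, adjusted p = 0.113), quantile normalization (adjusted p = 0.0723) or only these groups fitted (adjusted p = 0.0786). Without both replicates 2 and 3 of WIN1SRDX it was lost as well (adjusted p = 0.0589). Against wild type XTH12 did not pass in MYB106SRDX (-1.60, 95% interval -3.27 to 0.07, adjusted p = 0.0991), but passed without MYB106SRDX replicate 2 (-2.39, adjusted p = 0.00434). XTH13 (AT5G57540) was above background on no MYB106SRDX array and on 3 of 4 arrays of each other group, and was not tested.

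**Figure D2:**
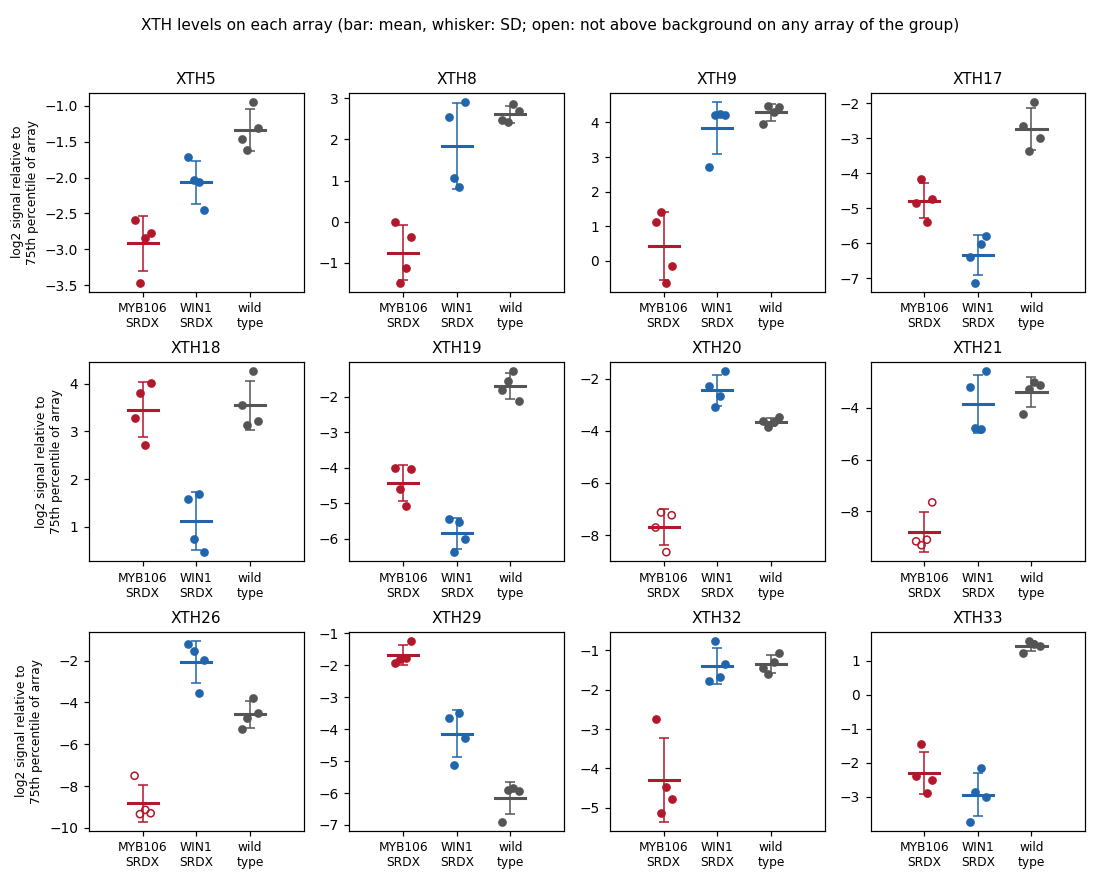
Level of the 12 XTH genes with the lowest p against wild type, as log2 signal relative to the 75th percentile of each array, for the 4 arrays of MYB106SRDX, WIN1SRDX and wild type (points), with mean (bar) and SD (whisker). The MYB106SRDX points of XTH20, XTH21 and XTH26 are open because none was above background, and in XTH19 and XTH29 the 3 groups do not overlap.

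The remaining group II genes split between the lines. XTH16 (AT3G23730) ranged from -2.25 to -0.15 in MYB106SRDX, from 1.01 to 2.24 in WIN1SRDX and from 1.34 to 2.16 in wild type. It fell by 2.65 ± 0.42 in MYB106SRDX (SE, adjusted p = 0.000417), while WIN1SRDX overlapped wild type (-0.05, 95% interval -0.97 to 0.87). XTH15 showed the other order. Like XTH16, it is known from shade-induced petiole elongation, and it ranged from 2.57 to 3.24 in MYB106SRDX, from 0.37 to 1.76 in WIN1SRDX and from 2.70 to 3.12 in wild type. XTH15 (AT4G14130) fell by 1.86 ± 0.31 in WIN1SRDX (SE, adjusted p = 0.00158) and overlapped wild type in MYB106SRDX (0.08, 95% interval -0.62 to 0.77). Between the lines XTH16 was lower in MYB106SRDX (-2.60, adjusted p = 0.0007) and XTH15 higher (1.94, adjusted p = 0.000747).

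XTH23, XTH24 and XTH25 of group II moved little or varied much. XTH23 (XTR6) ranged from 1.73 to 3.18 in MYB106SRDX and from 0.84 to 1.82 in wild type, with overlap. It rose by 0.97 ± 0.35 (SE, adjusted p = 0.0384), but by 0.64 without MYB106SRDX replicate 2, where it no longer passed (adjusted p = 0.0812). XTH23 also missed the threshold without replicate 4 of either line or without replicate 1, 2 or 4 of wild type (adjusted p = 0.050 to 0.0994), and with quantile normalization, the authors' scale, slide as a block or only these groups fitted (adjusted p = 0.0534 to 0.0801). XTH24 (AT4G30270), known as MERI-5 from meristem-rich tissue, had 95% intervals of -0.53 to 0.72 in MYB106SRDX and -0.45 to 0.80 in WIN1SRDX against wild type. XTH25 had intervals of -2.01 to 1.01 and -2.76 to 0.27 in the same order, wide enough to hold changes as large as many that passed.

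In group I, 8 of 11 genes were tested. Of these, 5 fell and 2 rose in MYB106SRDX, while 2 fell and 1 rose in WIN1SRDX. That is 87.5% and 37.5% of the 8, beside 52.2% and 32.6% of all genes in the same comparisons. XTH9 (AT4G03210), known from shoot apices and elongating tissue, read 1.12, 1.41, -0.64 and -0.14 in MYB106SRDX, 2.72, 4.21, 4.24 and 4.21 in WIN1SRDX, and 3.95, 4.47, 4.31 and 4.43 in wild type. All MYB106SRDX arrays lay below all others, whereas WIN1SRDX overlapped wild type. XTH9 fell by 3.85 ± 0.47 in MYB106SRDX (SE, adjusted p = 8.47e-05) and was lower than in WIN1SRDX (-3.41, adjusted p = 0.000301). In WIN1SRDX its difference from wild type was -0.45, with a 95% interval of -1.49 to 0.60.

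XTH8 (AT1G11545) showed the same order with more spread in WIN1SRDX. It read -0.02, -1.48, -1.14 and -0.38 in MYB106SRDX, 2.54, 1.06, 0.85 and 2.91 in WIN1SRDX, and 2.48, 2.42, 2.85 and 2.68 in wild type. The MYB106SRDX arrays were again the lowest with no overlap, and WIN1SRDX replicates 2 and 3, the arrays with high flower markers, lay below all wild-type arrays. XTH8 fell by 3.36 ± 0.47 in MYB106SRDX (SE, adjusted p = 0.000199) and did not pass in WIN1SRDX (-0.77, 95% interval -1.81 to 0.27). Without replicates 2 and 3 of WIN1SRDX that difference was 0.12 (adjusted p = 0.85). The part of floral or root tissue in it was not tested. XTH8 was lower in MYB106SRDX than in WIN1SRDX (-2.60, adjusted p = 0.00146).

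XTH5 and its close relative XTH4, also called EXGT-A1, fell in both lines. XTH5 (AT5G13870) read -2.60, -3.46, -2.84 and -2.77 in MYB106SRDX, -1.72, -2.03, -2.07 and -2.45 in WIN1SRDX, and -1.47, -1.62, -0.95 and -1.31 in wild type. The 3 groups did not overlap, with MYB106SRDX lowest. XTH5 fell by 1.58 ± 0.22 in MYB106SRDX (SE, adjusted p = 0.000197) and by 0.73 ± 0.22 in WIN1SRDX (SE, adjusted p = 0.027), and was lower in MYB106SRDX than in WIN1SRDX (-0.85, adjusted p = 0.0105). The WIN1SRDX call was lost without replicate 3 or 4 of WIN1SRDX or of wild type (adjusted p = 0.0546 to 0.0786), and with the authors' scale or slide as a block (adjusted p = 0.0627 and 0.0652). The difference between the lines was lost under quantile normalization (-0.52, adjusted p = 0.0572). Without both replicates 2 and 3 of WIN1SRDX neither the fall in WIN1SRDX (-0.75, adjusted p = 0.103) nor the difference between the lines (-0.83, adjusted p = 0.0606) passed.

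XTH4 (AT2G06850) ranged from 3.76 to 4.95 in MYB106SRDX, from 4.57 to 5.07 in WIN1SRDX and from 5.55 to 5.71 in wild type. It fell by 1.25 ± 0.22 in MYB106SRDX (SE, adjusted p = 0.000741) and by 0.79 ± 0.22 in WIN1SRDX (SE, adjusted p = 0.0176). Without replicates 2 and 3 of WIN1SRDX its fall there was 0.78 on the log2 scale and did not pass (adjusted p = 0.0719). The lines differed by -0.46, with a 95% interval of -0.94 to 0.01. That difference passed without MYB106SRDX replicate 2 (-0.66, adjusted p = 0.0147), with quantile normalization (-0.56, adjusted p = 0.0456) and with the scale of the authors' table (-0.63, adjusted p = 0.0389).

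XTH10 and XTH11, at the end of group I, rose. XTH11 (AT3G48580) ranged from -1.60 to 3.55 in MYB106SRDX, from -1.40 to 0.58 in WIN1SRDX and from -4.70 to -4.07 in wild type, so that both lines lay above wild type on every array. It rose by 5.23 ± 0.86 in MYB106SRDX (SE, adjusted p = 0.000567) and by 4.27 ± 0.86 in WIN1SRDX (SE, adjusted p = 0.00397). XTH10 (AT2G14620) ranged from -3.28 to 0.81 in MYB106SRDX, from -4.49 to -3.22 in WIN1SRDX and from -5.14 to -4.74 in wild type. It rose by 3.80 ± 0.67 in MYB106SRDX (SE, adjusted p = 0.000834) and was higher than in WIN1SRDX by 2.51 (adjusted p = 0.0114). Its WIN1SRDX arrays also lay above all wild-type arrays, but the difference of 1.29 did not pass (adjusted p = 0.162), except with MYB106SRDX replicate 4 left out of the shared fit (adjusted p = 0.041) or with only these groups fitted (adjusted p = 0.00717).

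XTH6 and XTH7 gave smaller differences. XTH6 (AT5G65730) ranged from 0.24 to 1.85 in MYB106SRDX, from 1.95 to 2.40 on 3 WIN1SRDX arrays and from 1.75 to 2.16 in wild type. Replicate 2 of WIN1SRDX has no XTH6 value because the spot was marked as an outlier. XTH6 fell by 0.92 ± 0.32 in MYB106SRDX (SE, adjusted p = 0.0353), a call lost without replicate 3 or 4 of MYB106SRDX or replicate 2, 3 or 4 of wild type (adjusted p = 0.0702 to 0.0891), with slide as a block (adjusted p = 0.0591) or with only these groups fitted (adjusted p = 0.0553). It was lower in MYB106SRDX than in WIN1SRDX (-1.01, adjusted p = 0.0409), and that call was lost without replicate 3 or 4 of MYB106SRDX, replicate 1, 3 or 4 of WIN1SRDX or any wild-type array (adjusted p = 0.0529 to 0.122), with dim genes kept (adjusted p = 0.0517), with only these groups fitted (adjusted p = 0.109) or without both replicates 2 and 3 of WIN1SRDX (adjusted p = 0.131). XTH7 (AT4G37800) was lower in MYB106SRDX than in WIN1SRDX (-1.19 ± 0.31, SE, adjusted p = 0.0108), with -2.28 within slide 2 and 0.0024 within slide 3, and did not pass without replicates 2 and 3 of WIN1SRDX (-0.74, adjusted p = 0.104). XTH7 passed in neither line against wild type, with 95% intervals of -1.19 to 0.19 in MYB106SRDX and -0.00399 to 1.38 in WIN1SRDX. Without WIN1SRDX replicate 1 its rise in WIN1SRDX passed (0.95, adjusted p = 0.03).

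In group III all 7 genes were tested, of which 4 fell and 1 rose in MYB106SRDX, while 1 fell and 1 rose in WIN1SRDX. That is 71.4% and 28.6% of the 7, beside 52.2% and 32.6% of all genes in the same comparisons. XTH33 (AT1G10550), a member known for a signal anchor that holds it at the plasma membrane, was low in both lines. It read -2.37, -1.44, -2.87 and -2.49 in MYB106SRDX, -3.72, -2.85, -2.16 and -2.99 in WIN1SRDX, and 1.23, 1.58, 1.48 and 1.42 in wild type. Both lines lay far below wild type and overlapped each other. XTH33 fell by 3.72 ± 0.34 in MYB106SRDX (SE, adjusted p = 1.26e-05) and by 4.36 ± 0.34 in WIN1SRDX (SE, adjusted p = 2.54e-05). The lines differed by 0.64, with a 95% interval of -0.11 to 1.39, and that difference passed without WIN1SRDX replicate 3 (0.90, adjusted p = 0.0481) or under quantile normalization (0.91, adjusted p = 0.0443).

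XTH29 (AT4G18990), known from heat and drought responses, rose in both lines. It read -1.93, -1.81, -1.77 and -1.24 in MYB106SRDX, -3.66, -5.11, -3.50 and -4.28 in WIN1SRDX, and -6.90, -5.90, -5.85 and -5.95 in wild type. The 3 groups did not overlap, with MYB106SRDX highest. XTH29 rose by 4.46 ± 0.36 in MYB106SRDX (SE, adjusted p = 5.47e-06) and by 2.01 ± 0.36 in WIN1SRDX (SE, adjusted p = 0.00202). It was higher in MYB106SRDX than in WIN1SRDX by 2.45 (adjusted p = 0.000387). With normexp correction the rises were 2.95 in MYB106SRDX and 1.08 in WIN1SRDX, and both passed.

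XTH32 and XTH31, the predicted hydrolases, fell in MYB106SRDX. XTH32 (AT2G36870) read -2.76, -5.14, -4.48 and -4.79 in MYB106SRDX, -1.77, -0.76, -1.69 and -1.34 in WIN1SRDX, and -1.44, -1.59, -1.29 and -1.06 in wild type. The MYB106SRDX arrays were the lowest with no overlap, and WIN1SRDX spanned the wild-type range. XTH32 fell by 2.95 ± 0.44 in MYB106SRDX (SE, adjusted p = 0.000312) and differed by -0.05 in WIN1SRDX, with a 95% interval of -1.03 to 0.93. XTH31 (AT3G44990) fell by 2.26 ± 0.50 in MYB106SRDX (SE, adjusted p = 0.00336) and had an interval of -1.50 to 0.71 in WIN1SRDX. In MYB106SRDX XTH32 (-2.90, adjusted p = 0.00053) and XTH31 (-1.87, adjusted p = 0.0121) were lower than in WIN1SRDX. Without replicates 2 and 3 of WIN1SRDX the XTH31 difference did not pass (-1.55, adjusted p = 0.0941).

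Of the other group III genes, XTH27 (EXGT-A3), known from tracheary elements, ranged from 3.75 to 4.92 in MYB106SRDX, from 4.82 to 4.96 in WIN1SRDX and from 4.57 to 4.80 in wild type. It fell by 0.59 ± 0.22 in MYB106SRDX (SE, adjusted p = 0.0449). The call was lost when any array other than MYB106SRDX replicate 2 was left out (adjusted p = 0.0547 to 0.116), and without that replicate the difference was -0.87 (adjusted p = 7.83e-05). It was also lost with the authors' scale, with dim genes kept, with slide as a block or with only these groups fitted (adjusted p = 0.0519 to 0.0881). XTH27 was lower in MYB106SRDX than in WIN1SRDX (-0.78, adjusted p = 0.0164), a call lost with just these groups in the fit (adjusted p = 0.0574) or without both replicates 2 and 3 of WIN1SRDX (adjusted p = 0.0729). XTH28, known from stamen filaments, differed from wild type by 0.33 in MYB106SRDX (95% interval 0.02 to 0.65, adjusted p = 0.0718) and by 0.29 in WIN1SRDX (95% interval -0.03 to 0.60). It passed in MYB106SRDX without replicate 4 of that line or replicate 3 of wild type (adjusted p = 0.0384 and 0.0428).

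XTH30 (AT1G32170) passed in neither line, at -0.39 in MYB106SRDX (95% interval -0.97 to 0.19) and -0.71 in WIN1SRDX (95% interval -1.30 to -0.13, adjusted p = 0.0603). Without MYB106SRDX replicate 2, which read 3.26 against 2.12 to 2.18 on the other 3 arrays of that line, XTH30 passed in both, at -0.67 in MYB106SRDX (adjusted p = 0.0131) and -0.71 in WIN1SRDX (adjusted p = 0.00998). In WIN1SRDX it also passed without replicate 1 of that line (-0.86, adjusted p = 0.0403), under quantile normalization (-0.71, adjusted p = 0.0486) and with only these groups fitted (adjusted p = 0.0192).

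**Figure D3:**
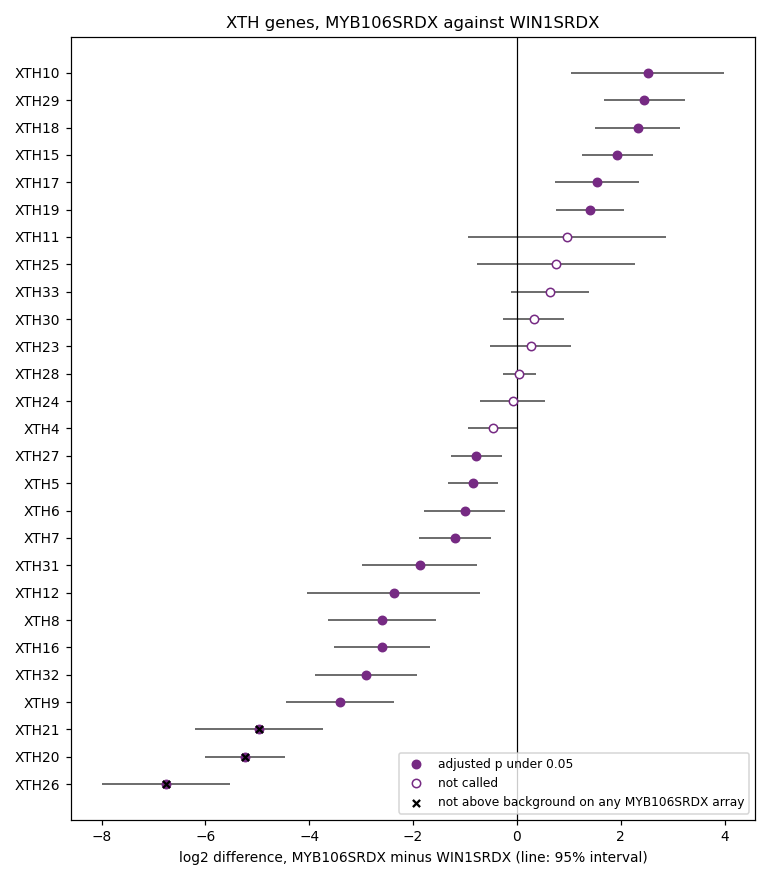
Difference of each of the 27 tested XTH genes between MYB106SRDX and WIN1SRDX on the log2 scale (MYB106SRDX minus WIN1SRDX), ordered by size, with 95% intervals as lines and filled points for adjusted p under 0.05. The 6 genes to the right that passed run from XTH10 at 2.51 to XTH19 at 1.41, and the 13 to the left end with XTH26, XTH20 and XTH21, marked by crosses because none was above background on any MYB106SRDX array.

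Read gene by gene, the pattern lower in MYB106SRDX than in both wild type and WIN1SRDX, with WIN1SRDX not called against wild type, was held by 8 members: XTH6, XTH8, XTH9, XTH16, XTH21, XTH27, XTH31 and XTH32. Calls in opposite directions were held by XTH20 and XTH26. In both lines XTH4, XTH5, XTH17, XTH19 and XTH33 fell, while XTH11 and XTH29 rose. XTH15 and XTH18 fell in WIN1SRDX and did not pass in MYB106SRDX, and for both the difference between the lines passed. XTH24, XTH25, XTH28 and XTH30 passed in no comparison. The share of all genes that held each of these joint patterns was not counted. Whether the members held them more often than other genes is therefore not known. Taken singly, calls were common among all genes, at 52.2% for MYB106SRDX against wild type and 32.6% for WIN1SRDX. For MYB106SRDX set against WIN1SRDX the share was 42.6%. XTH1, XTH2 and XTH3 were not tested, since XTH2 and XTH3 were above background on no array and XTH1 on 1 wild-type array.

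Genes that lie side by side shared only some of their calls. XTH24, XTH18 and XTH19 are direct neighbours on chromosome 4 in the TAIR10.1 annotation. In WIN1SRDX XTH18 and XTH19 fell and XTH24 did not pass, whereas in MYB106SRDX only XTH19 of these 3 genes passed. On chromosome 5 XTH13 and XTH25 are adjacent and 1 gene separates XTH12 from XTH13. The 31 members are spread over all chromosomes, with 11 of them on chromosome 4.

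The members varied more between arrays of a group than most genes did. The tested members had a median SD of 0.68 among MYB106SRDX arrays, 0.58 among WIN1SRDX arrays and 0.24 among wild-type arrays, beside 0.31, 0.28 and 0.14 over all tested genes in the same order. Summed over the members on the linear scale, the signal was 112, 187, 102 and 107 times the 75th percentile on MYB106SRDX arrays 1 to 4, 142 to 157 times on WIN1SRDX arrays and 174 to 208 times on wild-type arrays. The brightest members, among them XTH4, XTH24 and XTH27, weigh most in this sum, which lacks XTH6 on WIN1SRDX replicate 2. Replicate 2 of MYB106SRDX was within the wild-type range in the sum. XTH24 read 5.98 on that replicate, against 4.38 to 5.13 on the other 3 and 4.75 to 5.22 in wild type. The median member on replicate 2 still differed from the wild-type mean by -0.67, against -1.50 to -1.18 in the other 3. The slides each held all 3 groups. Within every slide the 19 calls in MYB106SRDX and the 11 in WIN1SRDX against wild type had the same sign as in the whole. With slide as a block, 16 members passed in MYB106SRDX, 13 lower and 3 higher, beside 48.7% of all genes, and 10 in WIN1SRDX, 6 lower and 4 higher, beside 28.3% of all genes.

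The genes that make and trim xyloglucan were measured beside the family, in a list of 18 genes that were all tested. In MYB106SRDX 10 fell and 1 rose, with a median difference of -0.80, and in WIN1SRDX 7 fell and none rose, with a median of -0.38. These are 61.1% and 38.9% of the 18, beside 52.2% and 32.6% of all genes in the same comparisons. Without WIN1SRDX replicates 2 and 3, 3 fell and 1 rose in WIN1SRDX, with a median of -0.32. That is 22.2% of the 18, beside 22.2% of all genes. The list's median difference was 0.03 on WIN1SRDX replicate 4, against -0.62 to -0.25 on the other arrays of that line. XUT1, a galacturonosyltransferase of root-hair xyloglucan, was above background on no MYB106SRDX array and was at least 10.7-fold lower there than in wild type (adjusted p = 2.52e-06). XXT3, a xylosyltransferase, fell by 1.21 and CSLC8, of the family that makes the glucan backbone, fell by 1.47 in MYB106SRDX (adjusted p = 0.00049 and 0.000899). In WIN1SRDX the xylosyltransferase XXT5 fell by 0.98, the glucan synthase CSLC4 by 1.08 and the galactosidase BGAL10 by 1.55 (adjusted p = 0.00297, 0.00339 and 0.0056).

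Between the lines 5 of these 18 genes were lower in MYB106SRDX and 2 higher. That is 38.9% of the 18, beside 42.6% of all genes, 24.2% lower and 18.3% higher. XUT1 was at least 14.96-fold lower in MYB106SRDX than in WIN1SRDX (adjusted p = 2.01e-06), and XXT3 was lower too (-1.50, adjusted p = 0.000201). MUR3, a xyloglucan galactosyltransferase, was higher in MYB106SRDX than in WIN1SRDX by 1.08 (adjusted p = 0.000111). MUR3 rose by 0.53 in MYB106SRDX (adjusted p = 0.00558) and fell by 0.55 in WIN1SRDX (adjusted p = 0.00814).

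With all arrays fitted, all 5 cellulose synthases of the primary wall fell in both lines, with medians of -0.79 in MYB106SRDX and -0.74 in WIN1SRDX. Of all genes 52.2% and 32.6% passed in the same comparisons. In MYB106SRDX CESA2 fell by 0.94, CESA5 by 1.11 and CESA3 by 0.53 (adjusted p = 0.000344, 0.00152 and 0.0225). In WIN1SRDX CESA2 fell by 0.74, CESA1 by 0.77 and CESA6 by 1.15 (adjusted p = 0.00311, 0.0077 and 0.00792). None of the 5 passed between the lines, beside 42.6% of all genes. Without WIN1SRDX replicates 2 and 3, only 2 of the 5 passed in WIN1SRDX, with a median of -0.66, beside 22.2% of all genes. In that fit 4 of the 5 passed in MYB106SRDX. With slide as a block, 3 passed in MYB106SRDX and 4 in WIN1SRDX. The list's median difference from the wild-type mean was -0.32 on WIN1SRDX replicate 4 and lower on the other arrays of that line.

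Markers of roots, leaf epidermis, flowers and chloroplasts were read in the same samples. Of 12 root markers 9 fell and none rose in MYB106SRDX, with a median of -3.27, and the root-hair genes COBL9 and EXPA18 were above background on no array of that line. In WIN1SRDX 6 root markers rose and 1, CASP2 of the endodermis, fell, with a median of 0.88. These are 75% and 58.3% of the 12, beside 52.2% and 32.6% of all genes in the same comparisons. Without a call, CASP1 (-1.59, adjusted p = 0.0945) and PHO1 (-0.58, adjusted p = 0.101) also lay below wild type on every WIN1SRDX array, so that 3 markers were lower and 8 higher there with no overlap. Over all genes 21% were lower and 22% higher in WIN1SRDX with no overlap. Between the lines all 12 root markers were lower in MYB106SRDX, beside 24.2% of all genes. Their summed signal ranged from 14.4 to 39.1 times the 75th percentile in MYB106SRDX, from 39.9 to 65.7 in WIN1SRDX and from 33.8 to 36.5 in wild type, and 6 to 8, 12, and 11 to 12 of the 12 were above background on an array of these groups. PYK10, a beta-glucosidase of root ER bodies, made up 78.8% to 95.3% of that sum on an array, and did not pass in MYB106SRDX (-0.27, adjusted p = 0.482). The other 11 summed to 1.58 to 2.60 in MYB106SRDX, 7.94 to 13.3 in WIN1SRDX and 6.50 to 7.47 in wild type. Of the 7 tested root-expressed XTH genes, 5 fell in MYB106SRDX as these markers did, whereas XTH12 and XTH18 (-0.09) did not pass there. In WIN1SRDX XTH20 and XTH26 rose, XTH12 and XTH21 did not pass, and XTH17, XTH18 and XTH19 fell. Of the 12 markers 6 rose in WIN1SRDX, 1 fell and 2 more were lower there with no overlap. The part of the root markers in the XTH result was not tested. In RNA from whole seedlings, fewer cells of a type and less RNA per cell cannot be told apart.

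The 4 genes listed here as leaf epidermis markers, ATML1, PDF1, FDH and GL2, all fell in MYB106SRDX, with a median of -3.78. Of all genes 52.2% passed in MYB106SRDX, with 28.6% lower, and 32.6% passed in WIN1SRDX, with 15.2% lower. RNA of whole seedlings does not tell in which organ the markers fell. In WIN1SRDX 1 of them, ATML1, fell (-2.79, adjusted p = 0.00193). With MYB106SRDX replicate 2 left out of the shared fit 2 passed there, beside 36.8% of all genes. With all arrays the 4 markers differed in WIN1SRDX by -2.83 to -1.72, with a median of -2.29. Beside 21% of all genes, 3 of the 4 lay below wild type with no overlap. Their summed signal ranged from 0.789 to 9.85 in MYB106SRDX, from 1.46 to 9.37 in WIN1SRDX and from 18.5 to 20.04 in wild type, all of them above background on every array. In WIN1SRDX the epidermis markers had medians of -1.09 and -1.92 from the wild-type mean on replicates 2 and 3, against -3.26 and -3.36 on replicates 1 and 4. Of the 4 flower markers PI and SEP3 rose in MYB106SRDX and none passed in WIN1SRDX, with sums of 3.29 to 16.0, 0.474 to 8.76 and 0.247 to 1.12 in MYB106SRDX, WIN1SRDX and wild type. Within WIN1SRDX the sums were 8.76 and 6.68 on replicates 2 and 3, and 1.19 and 0.474 on replicates 1 and 4, and AP3 read 0.47 and -0.23 on replicates 2 and 3, and -6.17 and -6.47 on replicates 1 and 4. The same replicates 2 and 3 were the low ones for XTH8 and XTH21, among others, and the high ones for XTH7 and XTH16, among others. XTH7 read 4.12 and 3.65 on replicates 2 and 3, and 2.66 and 3.32 on replicates 1 and 4. On each WIN1SRDX array XTH21 is also the median of the root-expressed XTH genes. Root markers were lower on replicates 2 and 3 than on replicates 1 and 4 as well. AG was above background on 1, 2 and 2 arrays of MYB106SRDX, WIN1SRDX and wild type and was not tested. None of the 5 chloroplast markers passed in any comparison, and their sums ran from 499 to 597 in MYB106SRDX, from 437 to 570 in WIN1SRDX and from 518 to 576 in wild type. The part of these tissues in the XTH result was not tested. The 20 tested members outside the root-expressed list gave 10 lower and 4 higher in MYB106SRDX, with a median of -0.55. Without replicate 2 of that line, whose own median was 0.03, they gave 11 lower and 3 higher, with a median of -1.02. Both are 70% of the 20, beside 52.2% and 52.5% of all genes. In WIN1SRDX these members gave 4 lower and 2 higher, with a median of -0.05. That was 30% of the 20, beside 32.6% of all genes. Without replicates 2 and 3 of WIN1SRDX they gave 2 lower and 2 higher, with a median of -0.14. That was 20% of the 20, beside 22.2% of all genes.

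**Figure D4:**
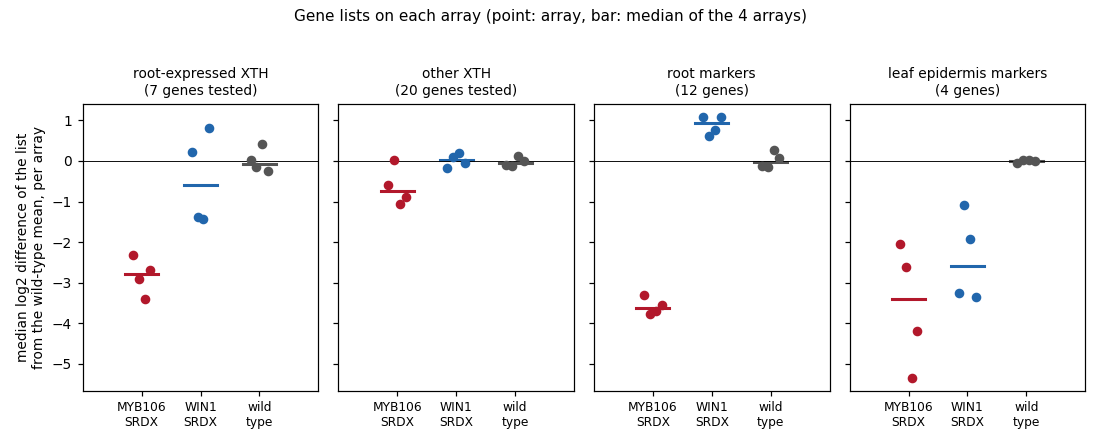
Median log2 difference of each gene list from the wild-type mean on each array (points, with the median of the 4 arrays as a bar) for MYB106SRDX, WIN1SRDX and wild type. On MYB106SRDX arrays the root-expressed XTH genes lie between -3.39 and -2.31 and the root markers between -3.78 and -3.31, while on WIN1SRDX arrays the root markers lie between 0.61 and 1.09 and the root-expressed XTH genes between -1.43 and 0.82. The median root-expressed XTH gene on every WIN1SRDX array is XTH21.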

How the data were processed

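Per the file headers, the 12 1-colour arrays were read with Agilent Feature Extraction 9.1.3.1. Each spot of the deposited scanner files has a processed intensity, from which the software had already subtracted background, raw intensity and background columns, and flags scored 0 or 1. Set against these files, the deposited value table is the processed intensity divided by a constant for each group, so each of its values is a ratio made by the authors. Its column medians were 0.0598 to 0.0758 for MYB106SRDX, 0.0867 to 0.137 for WIN1SRDX and 0.0966 to 0.109 for wild type. It is linear and not centred, and the sources used here do not say why the constants differ.

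Processed signals were put on the log2 scale and centred on the 75th percentile of each array's non-control spots. Control spots and outlier-marked spots were removed, and the brightest probe on average stood for a locus with several. Testing was limited to genes well above background on every array of 1 or more groups (20267 of 25665 loci). limma 3.58.1 in R 4.3.3 was fitted to all 3 groups at once, with 9 residual degrees of freedom and Benjamini-Hochberg adjusted p-values over the whole table, and was checked on simulated data. Where no array of a group showed a gene above background, a bound is given: the brighter group's mean against the mean of the lowest detectable signal, or the gene's own if higher, on each array of the dimmer group. The number of arrays limits the precision.

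The members and gene lists were chosen with earlier results of these data known. Values on every array are given for the 12 members with the lowest p against wild type among those that passed, and 3 genes are named from each wall gene list where at least 3 passed. MUR3 against wild type, CASP1, CASP2, PHO1, PYK10, AP3, COBL9, EXPA18, ATML1, PI, SEP3 and AG were named after their values were seen. Symbols and neighbours come from RefSeq (TAIR10.1). Alternatives were background correction, quantile normalization, the authors' scale, filters and a floor on dim signals, slide or replicate number as a block, probe averaging, keeping marked spots, fitting 2 groups, leaving out each array and, added after the data were seen, leaving out WIN1SRDX replicates 2 and 3 together.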

Additional observations from a re-analysis of the deposited data

Results flagged for a closer look

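Levels of the tested members and of the targeted genes were checked in 79 sets of 4 arrays of a group. Sets with a missing or below-background value were left out. Among the sets left out was WIN1 in MYB106SRDX, where replicate 3 read -3.36, against -9.16 to -8.62 on the other arrays of that line. Of the 79 sets checked, 5 held an array that stood far from the other 3, and about 1 in 20 such sets would by chance. Replicate 2 of MYB106SRDX read 3.26 for XTH30, against 2.12 to 2.18 on the other arrays of that line, and 2.77 for MYB106 itself, against 4.53 to 4.81. Replicate 1 of WIN1SRDX read 2.72 for XTH9, against 4.21 to 4.24. Replicate 2 of WIN1SRDX read -1.40 for XTH11, against 0.30 to 0.58. Replicate 1 of wild type read -6.90 for XTH29, against -5.95 to -5.85.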

How the results depend on the processing

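Leaving out each array in turn, 16 to 20 members passed in MYB106SRDX against wild type (3 to 5 higher, 13 to 17 lower), 9 to 12 in WIN1SRDX against wild type (3 to 5 higher, 6 to 8 lower) and 17 to 20 between the lines (6 to 7 higher, 11 to 14 lower), beside 9163 to 10776, 4834 to 7454 and 7663 to 8623 of all genes. Of the calls, 15 of 19, 8 of 11 and 13 of 19 passed under every alternative fit that tested the gene; the others were XTH6, XTH23, XTH26 and XTH27 in MYB106SRDX, XTH4, XTH5 and XTH20 in WIN1SRDX, and XTH5, XTH6, XTH7, XTH12, XTH27 and XTH31 between the lines. Without both WIN1SRDX replicates 2 and 3, which left 2 arrays in that group, 18, 9 and 13 members passed, with 7 of the last lower, against 10830, 4502 and 6706 of all genes, and the WIN1SRDX differences from wild type were -0.067 for XTH6, 0.12 for XTH8 and 0.52 for XTH21, none of which passed. With only genes above background on all 12 arrays, 2 members were higher in WIN1SRDX, because XTH20 and XTH26 are then left out. The labels' replicate numbers did not pair the samples (correlation of deviations -0.16 to 0.20 over 12 same-numbered pairs); with the replicate number as a block 18, 11 and 19 members passed, and 10031, 5860 and 8013 of all genes. In MYB106SRDX against wild type XTH23 (adjusted p = 0.0588) and XTH27 (adjusted p = 0.0522) then did not pass and XTH12 (adjusted p = 0.039) did; the block changed no other call of a member. The authors' scale moved the median of all genes to -0.10 in MYB106SRDX, 0.12 in WIN1SRDX and -0.20 between the lines, and the share of calls that were higher to 66.5% in WIN1SRDX and 25.6% between the lines, against 53.4% and 43.1%; the members passing were then 3 higher and 14 lower, 4 and 6, and 6 and 14. Some small differences that had not passed changed sign. Leaving out 1 array at a time gave, against wild type in MYB106SRDX, -0.0020 to 0.23 for XTH15, -0.27 to 0.15 for XTH18 and -0.21 to 0.32 for XTH24, and in WIN1SRDX -0.067 to 0.16 for XTH6, -0.25 to 0.16 for XTH16 and -0.26 to 0.081 for XTH32. Between the lines it gave -0.070 to 0.47 for XTH23, -0.39 to 0.15 for XTH24 and -0.030 to 0.12 for XTH28. Quantile normalization gave -0.041 for XTH15 in MYB106SRDX and -0.057 for XTH28 between the lines. The authors' scale gave 0.074 for both XTH16 and XTH32 in WIN1SRDX and -0.12 for XTH28 between the lines. Slide as a block gave -0.082 for XTH15 in MYB106SRDX and 0.038 for XTH32 in WIN1SRDX. XTH7, which had passed between the lines, was at 0.0024 within slide 3. The causes were not tested. Signals near background limit XTH12, XTH17, XTH19, XTH20, XTH21, XTH26 and XTH29, whose log2 differences normexp correction shrank by over 1.5 times in at least 1 comparison.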
